A study of Mus musculus with 50 samples.

Results

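The libraries described here ask how far a short chemical block of SGK kinases and a lasting loss of their genes leave macrophages with the same RNA response to STING activation. The members are the 10 libraries, of 50 in the series, of 2 groups from batch b1: 5 libraries of control cells given the SGK inhibitor Sanofi-14h and then DMXAA, and 5 libraries of SGK1/3 double knockout cells given DMXAA without the inhibitor. They were chosen by the sample names and titles alone, and no measured value entered the choice. All cells were RAW264.7, a mouse macrophage line, and RNA was measured by sequencing of poly-A RNA.

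The inhibitor group carried an empty vector sgRNA, received 500 nM Sanofi-14h for 2 h, and was then stimulated with DMXAA at 10 µg/mL for 2 h. The double knockout group was a CRISPR-edited line, stimulated with the same DMXAA dose for the same time. Both are set beside control cells of batch b1 with the empty vector sgRNA, given DMXAA (5 libraries) or at rest (3 libraries). Double knockout and control cells of batch b2, a separate set of libraries, were used as a second look at the knockout: 3 and 4 libraries with DMXAA, and 3 and 3 at rest. SGK3 knockout cells of b1 (5 libraries with DMXAA, 3 at rest) and SGK1 knockout cells of b2 (4 and 3) also entered the fits. They helped set the spread per gene in their batch. The labels name 1 line per genotype and do not say whether it was a clone, nor which control libraries received the DMSO vehicle. The 2 main groups therefore differ in cell line, in duration of SGK loss and in exposure to a drug, and these differences cannot be told apart.

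SGK1, SGK2 and SGK3 are serine/threonine kinases related to AKT that act downstream of PI3K and PDK1, and FOXO factors and NDRG1 are among their substrates. DMXAA binds mouse STING, which recruits the kinase TBK1; TBK1 phosphorylates the transcription factor IRF3, and IRF3 with NF-kB turns on the interferon beta gene Ifnb1 and a first wave of antiviral genes. Secreted interferon then acts through its receptor to raise a wider set of interferon-stimulated genes.

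Libraries of batch b1 used here held 57859509 to 94616453 counts in the inhibitor group, 64307786 to 101068327 in the double knockout and 65918300 to 86608986 in control cells with DMXAA. Levels below are CPM, deposited counts over each library's TMM-adjusted size, and differences are log2 fold changes ± SE with Benjamini-Hochberg adjusted p-values from edgeR's quasi-likelihood test. A call is an adjusted p under 0.05. All 10 macrophage markers examined were above 1 CPM in each of the 3 groups with DMXAA, and markers of other cell types summed to 0.98 to 2.39 CPM in the inhibitor group, 0.845 to 1.25 CPM in the double knockout and 1.58 to 2.29 CPM in control cells. Of those 24 markers, 18 were at 0 in all inhibitor libraries, 19 in all double knockout libraries and 17 in all control libraries. Double knockout replicate 5 stood below its group for several DMXAA-induced genes, including Ifnb1, Ifit1, Ccl5, Cxcl10, Pdcd1 and Acod1, and values without it are given where they matter. Whether replicates were separate cultures is not stated, so the p-values cover the spread among libraries, which may be technical.

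The targeted genes came first. Sgk1, whose RNA is itself inducible, had 9, 13.5, 13.8, 12 and 10.1 CPM in the inhibitor libraries, 6.02, 5.46, 5.35, 4.5 and 3.07 CPM in the double knockout libraries and 46.4 to 54.8 CPM in control cells with DMXAA. The 3 groups did not overlap. Sgk1 was 1.26 ± 0.14 higher with the inhibitor, where the gene is intact, than in the double knockout (adjusted p = 7.37e-08). Relative to control cells with DMXAA the log2 fold change of Sgk1 was -2.13 with the inhibitor and -3.39 in the double knockout. Control cells at rest held 1.62 ± 0.33 CPM (SD, n = 3), so most of the Sgk1 RNA of stimulated control cells was absent from both groups. At rest in batch b2, Sgk1 was 0.606 ± 0.212 CPM in the double knockout and 2.11 ± 0.989 CPM in control cells (SD, n = 3 each), a difference that was not called (adjusted p = 0.233).

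Sgk3 RNA was not lower in the double knockout. It measured 92 to 99.8 CPM with the inhibitor, 119 to 122 CPM in the double knockout and 97.4 to 109 CPM in control cells with DMXAA, with a difference of -0.34 ± 0.04 between inhibitor and double knockout (adjusted p = 3.31e-08). The counts sum over the whole gene and the edited position is not given in the sources used here, so the Sgk3 level does not check the knockout. Sgk2 had no count in any library of batch b1.

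**Figure D1:**
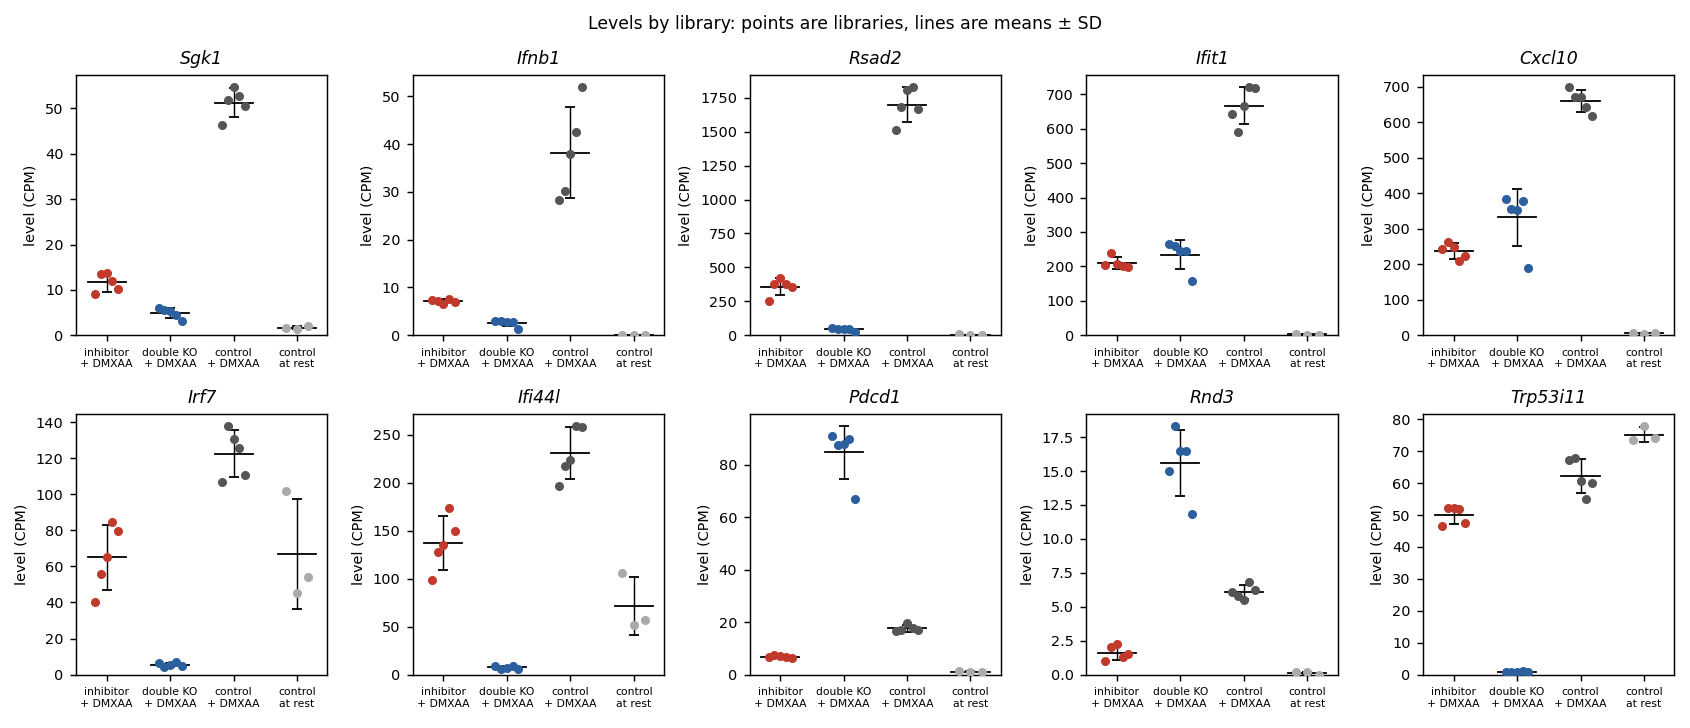
Levels of 10 genes in CPM (vertical axes, each starting at 0) in the inhibitor, double knockout and control groups with DMXAA and in control cells at rest, all from batch b1. Points are libraries and lines are means ± SD. Sgk1, Ifnb1, Rsad2, Ifit1, Cxcl10, Irf7, Ifi44l and Trp53i11 are below stimulated control cells in both the inhibitor and the double knockout group. Irf7, Ifi44l and Trp53i11 have their lowest levels in the double knockout, and Pdcd1 and Rnd3 are highest there.

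The 2 groups were far from alike across the transcriptome. Of 16947 genes tested, 3976 were called between inhibitor and double knockout (23.5%), 1862 higher with the inhibitor (11%) and 2114 lower (12.5%). At least 2-fold differences were fewer, with 446 genes higher (2.63%) and 223 lower (1.32%). Set against control cells with DMXAA, the inhibitor gave 3520 calls (20.8%), 1802 higher (10.6%) and 1718 lower (10.1%), and the double knockout gave 4468 (26.4%), 2457 higher (14.5%) and 2011 lower (11.9%). Genes at least 2-fold away from control cells numbered 66 higher (0.389%) and 214 lower (1.26%) with the inhibitor, and 236 higher (1.39%) and 651 lower (3.84%) in the double knockout. These comparisons with control cells share the same 5 control libraries. When the libraries of batches b1 and b2 were fitted together, the direct comparison gave 2036 calls.

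**Figure D2:**
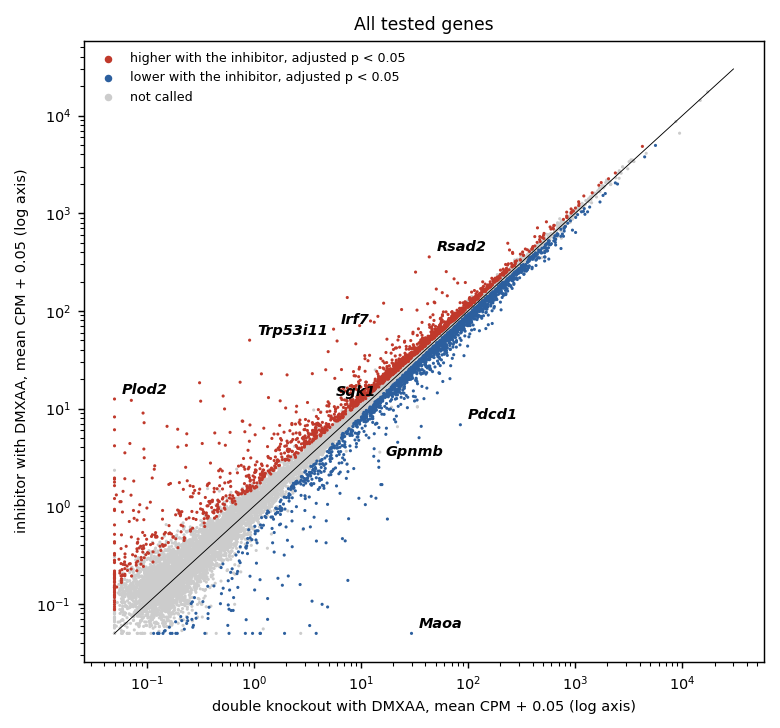
Mean level of each of the 16947 tested genes with the inhibitor (vertical axis) against the double knockout (horizontal axis), both with DMXAA, in CPM + 0.05 on log axes. Coloured points are the 1862 genes higher and 2114 lower with the inhibitor; Plod2 and Maoa lie on the edges because they had no count in 1 of the groups.

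In b1, the genes that DMXAA raises most were mostly lower than in control cells in both groups. In control cells, 94 protein-coding genes rose at least 4-fold with DMXAA, among the 17.9% of all tested genes that it raised; they were picked from the control libraries, so their values against control cells are a description. With the inhibitor 80 of the 94 were lower than in control cells and 0 were higher, with a median log2 fold change of -1.0; in the double knockout 75 were lower and 2 higher, with a median of -0.90. Over all genes tested, 10.1% were lower with the inhibitor and 11.9% in the double knockout. As a share of the control level, the median over the 94 genes was 50.1% with the inhibitor and 53.7% in the double knockout. In b2 with DMXAA fewer were called, with 31 of the 94 lower in the double knockout (33%, against 6.41% of all genes) and 4 higher. At rest in b2, 25 were lower (26.6%, against 1.87%) and 2 higher. The median was -0.49 in each of these b2 comparisons. The direct comparison does not use the control libraries, and there 25 genes were higher with the inhibitor (26.6%, against 11% of all genes tested), 26 were lower (27.7%, against 12.5%) and 43 were not called. Their median difference was 0.01, beside 0.02 over all genes, and 53 of the 94 lay within 0.5 of 0 whereas 20 lay more than 1 away. In the fit of both batches together the counts were 19 higher and 17 lower.

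**Figure D3:**
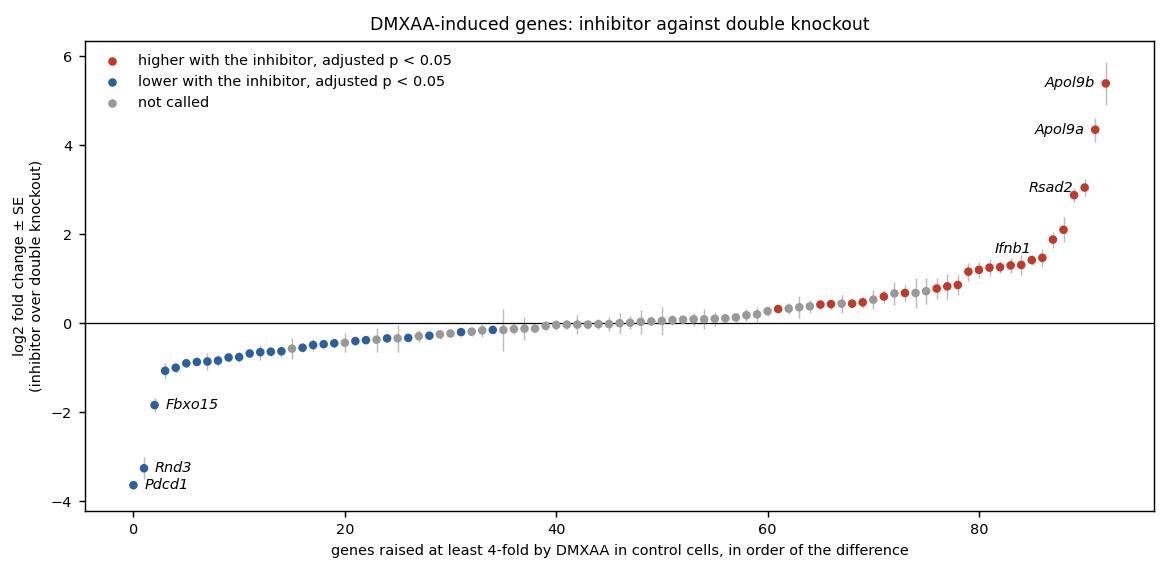
Log2 fold change ± SE of inhibitor over double knockout (vertical axis) for the genes that DMXAA raised at least 4-fold in control cells, in order of the difference; Tgtp2, with almost no counts in the double knockout, is left out. Red points are higher and blue points lower with the inhibitor at adjusted p under 0.05, and grey points are not called; most genes lie near 0, with Apol9b and Apol9a at the upper end and Pdcd1 and Rnd3 at the lower.

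The range is shown by 4 induced genes, and their promoters are printed because Rsad2, Ifit1 and Cxcl10 hold a match to a motif known for interferon and IRF factors in this window, where Pdcd1 has no such match. The windows are the 250 bases before the annotated start from RefSeq, on build GRCm38.p6, printed 5′ to 3′ on the strand of the gene. Capitals mark matches, on either strand, to GAAA followed by any 2 bases and a second GAAA, the core of the interferon-stimulated response element. Rsad2 lies at chr12:26456453-26456702 on the minus strand, Ifit1 at chr19:34640639-34640888 on the plus strand, Cxcl10 at chr5:92348890-92349139 on the minus strand and Pdcd1 at chr1:94052554-94052803 on the minus strand.
Rsad2: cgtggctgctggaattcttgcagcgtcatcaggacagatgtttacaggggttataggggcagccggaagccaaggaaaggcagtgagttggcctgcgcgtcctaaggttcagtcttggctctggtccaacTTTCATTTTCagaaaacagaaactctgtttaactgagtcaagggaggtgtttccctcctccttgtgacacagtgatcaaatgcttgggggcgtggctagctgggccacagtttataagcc
Ifit1: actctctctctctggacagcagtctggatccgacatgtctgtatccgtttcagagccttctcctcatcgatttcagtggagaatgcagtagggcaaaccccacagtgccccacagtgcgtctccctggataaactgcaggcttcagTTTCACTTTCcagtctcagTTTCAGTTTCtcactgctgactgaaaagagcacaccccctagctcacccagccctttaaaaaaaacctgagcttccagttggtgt
Cxcl10: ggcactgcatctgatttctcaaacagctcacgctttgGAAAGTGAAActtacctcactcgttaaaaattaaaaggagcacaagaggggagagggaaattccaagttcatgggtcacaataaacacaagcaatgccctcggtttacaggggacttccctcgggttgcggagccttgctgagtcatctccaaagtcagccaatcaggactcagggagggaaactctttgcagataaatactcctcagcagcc
Pdcd1: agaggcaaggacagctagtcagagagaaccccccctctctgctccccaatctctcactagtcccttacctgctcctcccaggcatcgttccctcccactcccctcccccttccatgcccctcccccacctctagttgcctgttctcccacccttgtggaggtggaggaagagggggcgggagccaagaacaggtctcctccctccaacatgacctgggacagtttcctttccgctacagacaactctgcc
Ifit1 held 2 matches, Rsad2 and Cxcl10 held 1 each, and Pdcd1 held 0. Of the 94 induced genes 79 had a window, and a gene counted as holding a match if any of its windows did. By that measure 19 of the 79 held a match (24.1%), beside 3.42% of the 10535 tested genes with a window. Counted by window, the share was 2.98% of all 32851 promoters in the table. Among induced genes with a window, a match was found for 8 of 22 that were higher with the inhibitor (36.4%). For those not called it was 10 of 37 (27%), and for those that were lower 1 of 20 (5%). The FOXO sequence TGTTTAC, searched on both strands, was found for 6 of the 79 genes (7.59%). It was found for 2.67% of the tested genes with a window and in 3.17% of all promoters. A match describes these letters only.

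Rsad2, which encodes the antiviral enzyme viperin, had 256, 378, 421, 379 and 353 CPM with the inhibitor and 52.2, 49.5, 43.1, 44.6 and 27 CPM in the double knockout, against 1510 to 1830 CPM in control cells with DMXAA. Both groups lay far below control cells without overlap, and the double knockout was lower by a further 3.05 ± 0.19 on the log2 scale (inhibitor over double knockout, adjusted p = 6.35e-11). Its neighbour Cmpk2, a mitochondrial nucleotide kinase, followed with 90.6 to 133 CPM with the inhibitor, 14.2 to 19.4 CPM in the double knockout and 475 to 579 CPM in control cells (2.88 ± 0.15, adjusted p = 1.18e-12). Ifnb1, picked with its values known, had 7.4, 7.11, 6.63, 7.68 and 7.03 CPM with the inhibitor and 2.99, 3.06, 2.75, 2.76 and 1.4 CPM in the double knockout, against 28.4 to 52 CPM in control cells with DMXAA. It had no count in control cells at rest. A lower level can mean less RNA in each cell or fewer cells that express the gene, which bulk RNA cannot tell apart. Ifnb1 was 1.47 ± 0.20 higher with the inhibitor than in the double knockout (adjusted p = 7.97e-06; 1.31 without double knockout replicate 5).

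For other early genes no difference between the groups was called. Ifit1, which binds viral RNA, had 204, 240, 206, 201 and 197 CPM with the inhibitor and 265, 258, 245, 246 and 159 CPM in the double knockout, against 591 to 720 CPM in control cells. The difference of -0.16 ± 0.15 was not called (95% interval -0.48 to 0.15, adjusted p = 0.514). Without double knockout replicate 5, at 159 CPM, the groups did not overlap, and the value was -0.27, also not called (adjusted p = 0.171). Ifih1, which encodes the RNA sensor MDA5, averaged 164 ± 23.7 CPM with the inhibitor, 156 ± 21.3 CPM in the double knockout and 385 ± 25.1 CPM in control cells (SD, n = 5 each), and its interval was -0.18 to 0.31. Isg15, a ubiquitin-like modifier, averaged 71.5 ± 6.12 CPM, 62.5 ± 9.77 CPM and 195 ± 14.3 CPM in the same 3 groups, with an interval of -0.17 to 0.56. Ifih1 and Isg15 were likewise chosen after their values were seen, and so were Ifit1 and the other genes for which no difference is reported.

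The 6 chemokine genes among the 94 were not of one direction. Ccl5 and Cxcl10 were lower with the inhibitor than in the double knockout, Ccl2 was higher, and Ccl3, Ccl4 and Cxcl2 were not called. Ccl2, a monocyte attractant named with its value known, stood at 1.31 ± 0.23 (adjusted p = 5.09e-05). Ccl5 had 10.7 to 14.6 CPM with the inhibitor, 13.2 to 24.8 CPM in the double knockout and 39.6 to 52.3 CPM in control cells with DMXAA. It was 0.76 ± 0.12 lower with the inhibitor than in the double knockout (log2 fold change -0.76, adjusted p = 2.6e-05). Cxcl10, which attracts T cells and was chosen after its values were seen, had 242, 263, 249, 208 and 223 CPM with the inhibitor. In the double knockout it had 384, 356, 352, 378 and 189 CPM, a log2 fold change of -0.49 ± 0.14 (adjusted p = 0.0162). Replicate 5 of the double knockout was the one library below all inhibitor libraries, and without it the value was -0.63. The calls of Ccl5 and Cxcl10 were lost in the fit of both batches together, at adjusted p = 0.0757 and 0.113, and that of Cxcl10 also in a fit of the 2 groups alone, at adjusted p = 0.0997.

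A few induced genes were lower than control cells with the inhibitor and were not called lower in the double knockout. Acod1, which makes itaconate, had 30.1, 32.8, 29.5, 27.8 and 26.6 CPM with the inhibitor and 68.1, 61.7, 61.3, 67.1 and 36.7 CPM in the double knockout, against 52.3 to 54.9 CPM in control cells. It was lower with the inhibitor than in the double knockout at -1.0 ± 0.11 (adjusted p = 1.72e-07; -1.14 without double knockout replicate 5), and the double knockout differed from control cells by 0.14, which was not called (adjusted p = 0.412). Hdc, which makes histamine, had 4.3 to 6.14 CPM with the inhibitor, 8.89 to 13.6 CPM in the double knockout and 9.88 to 13.3 CPM in control cells, and Fbxo15, an F-box gene, had 1.8 to 3.02 CPM, 7.34 to 9.29 CPM and 6.5 to 10.6 CPM. Their log2 fold changes of inhibitor over double knockout were -1.07 ± 0.18 for Hdc (adjusted p = 2.96e-05) and -1.84 ± 0.15 for Fbxo15 (adjusted p = 4.75e-11).

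Pdcd1 and Rnd3 went in opposite directions from control cells. Pdcd1, the gene of the checkpoint receptor PD-1, had 6.5, 7.3, 7.09, 6.64 and 6.39 CPM with the inhibitor and 90.9, 87.4, 88, 89.9 and 66.9 CPM in the double knockout, against 16.7 to 19.7 CPM in control cells with DMXAA. Inhibitor over double knockout was -3.64 ± 0.09 (adjusted p = 6.23e-24), with the inhibitor at -1.37 and the double knockout at 2.27 relative to control cells. Rnd3 had 0.98 to 2.27 CPM with the inhibitor, 11.8 to 18.3 CPM in the double knockout and 5.5 to 6.8 CPM in control cells, a log2 fold change of -3.26 ± 0.25 between inhibitor and double knockout (adjusted p = 8.87e-11). On GRCm39 Pdcd1 lies on chromosome 1 from 93966027 to 93980278 and Rnd3 on chromosome 2 from 51020450 to 51039123.

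Gene lists written from general knowledge place these genes in their pathways. Of 21 tested early interferon and IRF3 target genes, 19 were lower than control cells with the inhibitor and 19 in the double knockout. That is 90.5% each, beside 10.1% and 11.9% of all genes, with median log2 fold changes of -2.0 and -2.77. In b2 with DMXAA the double knockout had 9 of 19 lower (47.4%, against 6.41% of all genes) and 0 higher, with a median of -2.25. The counts at rest in b2 were the same, against 1.87% of all genes lower, with a median of -2.84. Directly compared, 6 were higher with the inhibitor (28.6%, against 11% of all genes), 5 were lower (23.8%, against 12.5%) and 10 were not called. The median was 0.27, or 0.20 with genes at 0 set to their lower bounds. In the fit of both batches together 6 were higher and 0 lower. Besides Ccl5 the list held Trex1, the cytosolic DNA exonuclease, at 32.3 ± 7.21 CPM with the inhibitor and 54.2 ± 11.0 CPM in the double knockout (SD, n = 5 each; log2 fold change -0.75 ± 0.19, adjusted p = 0.00486), a call lost in the fit of both batches together at adjusted p = 0.292.

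The wider interferon-stimulated genes were mostly higher with the inhibitor than in the double knockout. Of 59 tested, 43 were higher with the inhibitor than in the double knockout (72.9%, against 11% of all genes tested), 3 were lower and 13 were not called, and the median log2 fold change was 0.91 beside 0.02 over all genes. Relative to control cells with DMXAA, 52 were lower with the inhibitor (88.1%, median -0.88) and 56 in the double knockout (94.9%, median -1.91). Over all genes these shares were 10.1% and 11.9%. DMXAA itself raised 51 of the 59 in control cells (86.4%, against 17.9% of all genes), with a median of 1.10.

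Irf7, the transcription factor that amplifies the interferon response, had 40.1, 56, 65, 84.8 and 79.4 CPM with the inhibitor and 6.39, 4.12, 5.46, 6.8 and 4.72 CPM in the double knockout. Control cells held 107 to 138 CPM with DMXAA and 102, 45 and 54.2 CPM at rest. The double knockout lay below all resting libraries, and the inhibitor group overlapped them; without resting replicate 1, at 102 CPM, 4 of the 5 inhibitor libraries lay above the resting ones. That replicate was also the highest resting library for Ifi44l (106 CPM, beside 52.1 and 56.7), Siglec1 (19.4 CPM, beside 5.53 and 8.88) and Apol9a (14 CPM, beside 4.59 and 6.68). The difference between inhibitor and double knockout was 3.56 ± 0.23 (adjusted p = 9.31e-11). Ifi44l, an interferon-induced protein gene, had 98 to 174 CPM with the inhibitor, 6.09 to 9.24 CPM in the double knockout and 196 to 259 CPM in control cells with DMXAA (4.21 ± 0.20, adjusted p = 6.07e-13). Apol9a, an interferon-induced apolipoprotein L gene with a near-identical copy, Apol9b, with which it may share reads, had 14.9 to 28.3 CPM with the inhibitor, 0.795 to 1.49 CPM in the double knockout and 72.5 to 89 CPM in control cells. The exceptions were Slfn2, a growth-regulating Schlafen gene, at 112 ± 6.33 CPM with the inhibitor and 163 ± 15.9 CPM in the double knockout (-0.54 ± 0.06, adjusted p = 6.46e-08), Ifi213, a PYHIN gene, at -0.37 ± 0.09 (adjusted p = 0.00339), and Oasl1, chosen after its values were seen, at -0.33 ± 0.08 (adjusted p = 0.00235), whose call was lost in the fit of both batches together (adjusted p = 0.0737).

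Antigen presentation genes followed the interferon-stimulated genes at smaller size. Of 26 tested, 18 were higher with the inhibitor than in the double knockout (69.2%, against 11% of all genes) and 1 was lower, with a median of 0.41. Relative to control cells 13 were lower with the inhibitor (50%, against 10.1%) and 23 in the double knockout (88.5%, against 11.9%). The class Ib gene H2-T23 had 88.2 to 153 CPM with the inhibitor, 45.5 to 52 CPM in the double knockout and 132 to 163 CPM in control cells (1.31 ± 0.14, adjusted p = 1.69e-07). H2-T22, of the same family and possibly sharing reads with its paralogs, was higher by 1.09 ± 0.07 (adjusted p = 8.63e-14). B2m, the light chain of class I molecules, averaged 817 ± 59.4 CPM with the inhibitor, 538 ± 47.8 CPM in the double knockout and 931 ± 73.5 CPM in control cells (SD, n = 5 each; chosen after its values were seen).

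**Figure D4:**
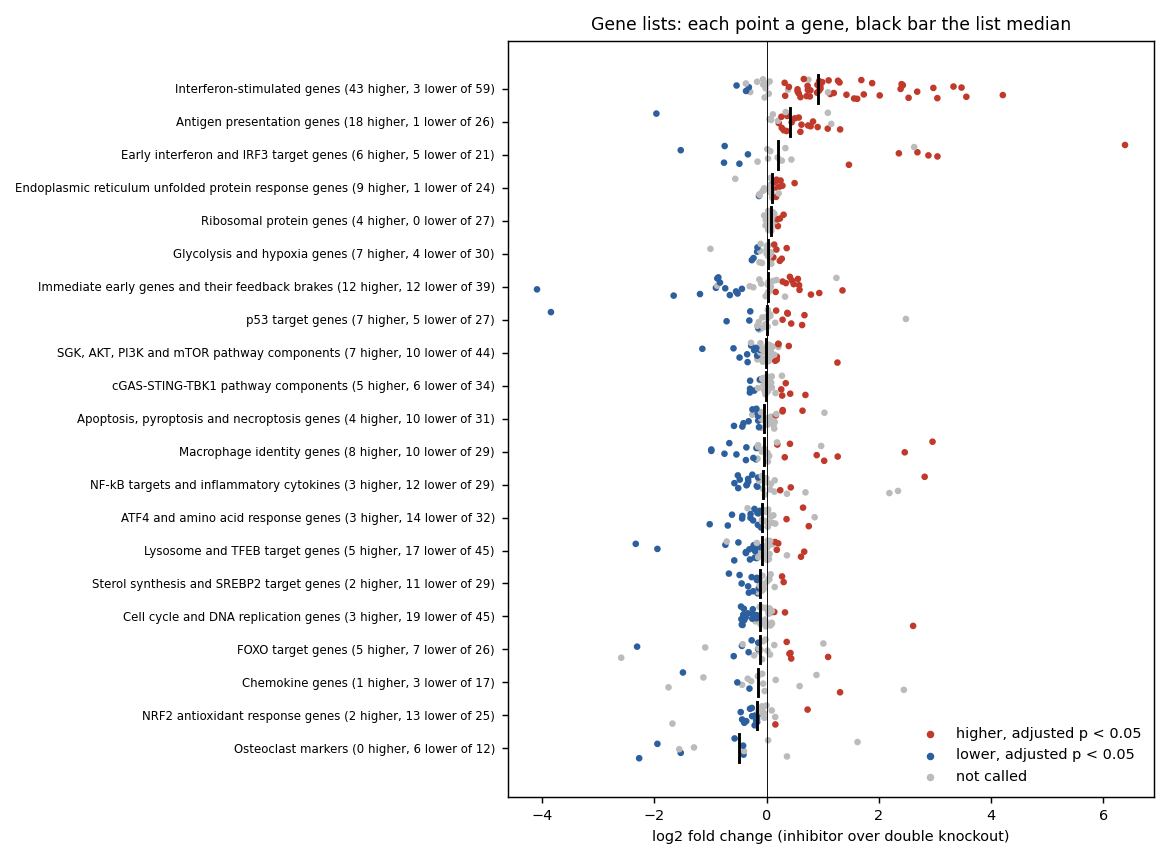
Log2 fold change of inhibitor over double knockout (horizontal axis) for the tested genes of each list (rows), with genes at 0 in either group not drawn. Points are genes, red higher and blue lower with the inhibitor at adjusted p under 0.05, and the black bar is the list median; of the lists drawn, interferon-stimulated genes lie furthest to the right, at 0.91, and osteoclast markers furthest to the left, at -0.49.

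Inflammatory and immediate early genes were called in both directions. Of 29 NF-kB targets and cytokines 3 were higher with the inhibitor (10.3%, near the 11% of all genes) and 12 lower (41.4%, against 12.5%). Their median was -0.07. Il1rn, the interleukin-1 receptor antagonist, had 10.9 to 13.3 CPM with the inhibitor, 1.05 to 2.12 CPM in the double knockout and 10.1 to 11.8 CPM in control cells with DMXAA (inhibitor over double knockout 2.82 ± 0.13, adjusted p = 4.68e-18). Tnf averaged 334 ± 31.3 CPM with the inhibitor, 341 ± 54.1 CPM in the double knockout and 535 ± 27.5 CPM in control cells (SD, n = 5 each), and the interval of its difference between inhibitor and double knockout was -0.22 to 0.16. Tnfaip2 and the fatty acid receptor gene Gpr84 were lower with the inhibitor than in the double knockout, at -0.57 ± 0.09 (adjusted p = 1.98e-05) and -0.51 ± 0.09 (adjusted p = 4.18e-05). Tnfaip2 had 38.3 to 43.8 CPM with the inhibitor, 40.5 to 68.3 CPM in the double knockout and 33.8 to 39 CPM in control cells. Gpr84 had 20.2 to 24.7, 27 to 38.1 and 24.9 to 30.5 CPM in the same groups. Of 17 chemokine genes tested 1 was higher (5.88%) and 3 were lower (17.6%), small counts beside 11% and 12.5% of all genes. Among the lower was Cxcl16 at -0.52 ± 0.06 (adjusted p = 6.52e-08). It had 54.5 to 60.2 CPM with the inhibitor, 65.2 to 87.4 CPM in the double knockout and 49.4 to 60.3 CPM in control cells. Ccl4 averaged 743 ± 38.2 CPM with the inhibitor, 736 ± 115 CPM in the double knockout and 1020 ± 78.1 CPM in control cells, with an interval of -0.29 to 0.32.

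Of 39 immediate early genes and their feedback brakes, 12 were higher with the inhibitor and 12 lower (30.8% each, beside 11% and 12.5% of all genes). Ier3, a stress-induced survival gene, had 115 to 142 CPM with the inhibitor, 45.8 to 54.5 CPM in the double knockout and 74 to 91.8 CPM in control cells (1.35 ± 0.10, adjusted p = 2.37e-10). Jun, the AP-1 subunit, had 54.9 to 66.7 CPM, 23.9 to 35.6 CPM and 33.6 to 42.1 CPM in the same groups (0.94 ± 0.09, adjusted p = 1.74e-09). For both genes the inhibitor group of b1 lay above control cells and the double knockout mostly below them. In b2 with DMXAA Jun was reversed, at 29.6 to 38.4 CPM in the double knockout and 16.5 to 22.3 CPM in control cells. Ier3 kept its order there, at 15.4 to 30.2 CPM and 45.5 to 60.3 CPM. Resting control cells of b1 held 47.3 to 57.1 CPM of Jun, above those with DMXAA. Egr3 and Klf6, zinc finger factors of the early response, were higher in the double knockout than with the inhibitor. Egr3 had 4.37 to 6.99 CPM with the inhibitor, 10.4 to 23.2 CPM in the double knockout and 8.44 to 11.4 CPM in control cells (-1.66 ± 0.17, adjusted p = 4.77e-08), and Klf6 had 50 to 59 CPM, 92 to 108 CPM and 55 to 63.8 CPM (-0.90 ± 0.07, adjusted p = 2.13e-12).

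Components of the STING pathway were called about as often as genes in general. Of 34 cGAS, STING and TBK1 pathway genes 5 were higher with the inhibitor (14.7%) and 6 lower (17.6%), near the shares of all genes. Sting1, the DMXAA receptor, had 28.1, 30.6, 34.6, 31.2 and 32.7 CPM with the inhibitor and 20.6, 18.9, 18.6, 21.7 and 17.6 CPM in the double knockout, against 32.4 to 38.1 CPM in control cells with DMXAA. The double knockout libraries lay below all others, and inhibitor over double knockout was 0.69 ± 0.07 (adjusted p = 1.19e-09); the inhibitor differed from control cells by -0.14, which was not called (adjusted p = 0.146). Irf5, an interferon regulatory factor, and Sqstm1, an autophagy receptor, were each at -0.30 with adjusted p-values of 3.18e-06 and 2.15e-05. Of 44 SGK, AKT, PI3K and mTOR pathway genes 7 were higher (15.9%) and 10 lower (22.7%), beside 11% and 12.5% of all genes. Foxo4, a FOXO factor, was higher with the inhibitor at 19.5 ± 1.72 CPM, beside 14.8 ± 1.19 CPM in the double knockout (SD, n = 5 each; 0.39 ± 0.07, adjusted p = 3.21e-05), and Ndrg1 was lower at 16.8 ± 3.47 CPM, beside 25.4 ± 2.7 CPM (-0.59 ± 0.11, adjusted p = 0.000254). Of 26 FOXO target genes 5 were higher (19.2%) and 7 lower (26.9%). Sesn1, a stress-induced brake on mTORC1, averaged 61.0 ± 6.93 CPM with the inhibitor, 45.0 ± 3.61 CPM in the double knockout and 31.1 ± 2.16 CPM in control cells with DMXAA (SD, n = 5 each), so it was above control cells in both groups.

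Several metabolic and organelle lists held more genes called lower with the inhibitor than the share of all genes, although, outside the NRF2 list, most members did not pass as lower. NRF2 antioxidant genes counted 13 of 25 lower and 2 higher (median -0.17). Sterol synthesis and SREBP2 target genes, the sterol list, counted 11 of 29 lower and 2 higher (median -0.12). Lysosome genes counted 17 of 45 lower and 5 higher (median -0.08), and ATF4 and amino acid response genes 14 of 32 lower and 3 higher (median -0.08). Among all genes 12.5% were lower. For NRF2, sterol and lysosome genes the double knockout of b1 was the group away from control cells, with 15, 15 and 20 genes higher than control cells, against 4, 3 and 5 with the inhibitor. Over all genes the shares higher than control cells were 14.5% in the double knockout and 10.6% with the inhibitor. In b2 with DMXAA the counts higher in the double knockout were 4 of 25 (16%), 9 of 29 (31%) and 16 of 45 (35.6%), against 6.43% of all genes. At rest in b2 the counts were 0, 0 and 2, against 1.16% of all genes. The median for NRF2 genes was -0.09 in b2 with DMXAA, beside 0.16 in b1. Gpnmb, a glycoprotein of lysosomes, had 1.89 to 3.69 CPM with the inhibitor, 12.1 to 16.7 CPM in the double knockout and 1.32 to 2.17 CPM in control cells (-2.33 ± 0.14, adjusted p = 2.18e-13). Slc7a11, the cystine transporter, was at -0.44 ± 0.08 (adjusted p = 0.000119). In the sterol list Mylip, which degrades the LDL receptor, was at -0.67 ± 0.06 (adjusted p = 2.89e-10). The 2 genes of that list called higher with the inhibitor were Scd2 and Tm7sf2. Scd2 had 965 to 1240 CPM with the inhibitor and 879 to 977 CPM in the double knockout. Tm7sf2 had 6.17 to 8.73 and 5.13 to 6.47 CPM, and its call was lost in the fit of both batches together (adjusted p = 0.427). Of 12 osteoclast markers, which RAW264.7 cells can acquire, 6 were lower with the inhibitor (50%, against 12.5% of all genes) and 0 higher (median -0.49). Dcstamp, needed for cell fusion, averaged 7.27 ± 1.77 CPM with the inhibitor, 21.0 ± 1.95 CPM in the double knockout and 11.1 ± 1.78 CPM in control cells, and Atp6v0d2, a proton pump subunit, averaged 1.88 ± 0.353 CPM, 7.25 ± 0.644 CPM and 1.69 ± 0.333 CPM (SD, n = 5 each).

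Many cell cycle genes were lower with the inhibitor. Of 45 tested, 19 were lower than in the double knockout (42.2%, against 12.5% of all genes) and 3 higher. Relative to control cells 24 were lower with the inhibitor (53.3%, against 10.1%) and 14 in the double knockout (31.1%, against 11.9%). In b2 with DMXAA, 22 of the 45 were lower in the double knockout than in control cells (48.9%, against 6.41%) and 0 higher. The median was -0.35 there beside -0.04 in b1. Mybl2, a transcription factor of dividing cells, had 167 to 200 CPM with the inhibitor, 226 to 273 CPM in the double knockout and 278 to 301 CPM in control cells (-0.46 ± 0.05, adjusted p = 1.3e-08). Mcm6, a subunit of the replicative helicase chosen after its values were seen, had 247 to 280 CPM, 344 to 359 CPM and 316 to 364 CPM (-0.41 ± 0.04, adjusted p = 5.46e-09). Genes of the endoplasmic reticulum unfolded protein response leaned the other way, with 9 of 24 higher with the inhibitor (37.5%, against 11% of all genes) and 1 lower. Sdf2l1, a chaperone cofactor, was higher by 0.50 ± 0.05 (adjusted p = 9.72e-09). Of 27 ribosomal protein genes 4 were higher (14.8%, near the 11% of all genes) and 0 lower. The share of counts in ribosomal protein genes was 7.20% to 8.90% with the inhibitor, 7.20% to 7.48% in the double knockout and 6.23% to 7.70% in control cells. Its part in other results was not tested.

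The remaining lists were mixed. Of 29 macrophage identity genes 8 were higher with the inhibitor (27.6%) and 10 lower (34.5%): the sialic acid receptor gene Siglec1 was at 2.96 ± 0.35 (adjusted p = 7.01e-07) and Adgre1, which encodes F4/80, at 1.03 ± 0.11 (adjusted p = 7.01e-09). The scavenger receptor gene Cd36 had 92 to 120 CPM with the inhibitor, 169 to 230 CPM in the double knockout and 106 to 143 CPM in control cells (-0.99 ± 0.09, adjusted p = 1.46e-08). Of 31 apoptosis, pyroptosis and necroptosis genes 4 were higher (12.9%) and 10 lower (32.3%), of 30 glycolysis and hypoxia genes 7 were higher (23.3%) and 4 lower (13.3%), and of 27 p53 target genes 7 were higher (25.9%) and 5 lower (18.5%), beside 11% higher and 12.5% lower among all genes. With 1 replicate left out the lowest counts were 3 higher for glycolysis, 4 higher for p53 targets and 6 lower for cell death genes. Mlkl, the executioner of necroptosis, was higher with the inhibitor by 0.64 ± 0.09 (adjusted p = 7.48e-07), and Bid, a BH3-only gene, was lower at -0.41 ± 0.05 (adjusted p = 2.32e-07).

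The largest differences in b1 belonged to genes that were on in 1 line and off or far lower in the other. Plod2, a collagen lysyl hydroxylase, had 11.5, 11.5, 13.8, 13.8 and 12 CPM with the inhibitor and no count in any double knockout library, at least 74.7-fold higher against a floor of 12 counts per library. Adgrl2, an adhesion receptor, and Crlf2, a cytokine receptor chain, were also at 0 in all 5 double knockout libraries and were at least 48.9-fold and 36.0-fold higher with the inhibitor. Adgrl2 averaged 8.17 CPM and Crlf2 6.02 CPM with the inhibitor, beside 9.77 and 6.07 CPM in control cells with DMXAA. Trp53i11, a p53-inducible gene, had 46.7 to 52.3 CPM with the inhibitor, 0.669 to 1.18 CPM in the double knockout and 55.1 to 67.9 CPM in control cells (5.87 ± 0.09, adjusted p = 8.79e-31). In b2 it was not off in the double knockout, at 9.68 to 14.4 CPM with DMXAA and 5.02 to 5.7 CPM at rest. Control cells of b2 held 59.7 to 64.7 CPM and 64.3 to 67.8 CPM. Bdh1, Nid2, Btg3, Sdc3 and Nsd1 averaged between 7.12 and 18.3 CPM with the inhibitor and between 0.0218 and 0.269 CPM in the double knockout. Maoa, monoamine oxidase A, was the reverse: it had no count with the inhibitor or in control cells and 28.8, 30.8, 31.1, 25.6 and 31.5 CPM in the double knockout, at least 180-fold lower with the inhibitor. Slc9b2, Pax3, Slc22a17, Spink5, Agap2 and Cd48 were also higher in the double knockout, at log2 fold changes of -5.82 to -3.33. For Maoa, Slc9b2, Pax3, Slc22a17, Agap2 and Cd48 the inhibitor group was not called different from control cells. Single knockout lines with DMXAA, SGK3 in b1 and SGK1 in b2, shared some of these states. Plod2 had no count in either, and Maoa had 26.2 to 33.3 and 19.7 to 32.1 CPM. Others were not shared: Slc9b2 reached at most 0.225 and 0.116 CPM, and Trp53i11 had 30.5 to 35.5 and 51.7 to 62.6 CPM. In the SGK3 knockout Pdcd1 (73.1 to 84.4 CPM), Rsad2 (27.8 to 42.9) and Irf7 (7.97 to 10.3) were nearer the double knockout than control cells. Rnd3 (1.33 to 2.84) was not.

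Mfsd4a, a transporter gene, met the same criteria but varied within groups. It had 0.862, 0.951, 1.05, 0.918 and 1.16 CPM with the inhibitor and 5.95, 16.6, 1.25, 15.5 and 15.3 CPM in the double knockout, and control cells with DMXAA ranged from 0.787 to 19.5 CPM. The inhibitor libraries sat together at the low end, next to the lowest double knockout library and the lowest control libraries.

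Double knockout cells of batch b2, which share no library with the comparison above, showed many of the same differences before any stimulation. Of the genes at least 2-fold higher with the inhibitor than in the double knockout, 398 were tested in b2, and 130 of them were lower in resting double knockout than in resting control cells (32.7%, against 1.87% of all genes tested) while 0 were higher. Of 212 genes at least 2-fold lower with the inhibitor, 70 were higher in the resting double knockout (33%, against 1.16%) and 1 was lower. With DMXAA in b2 the matching counts were 157 of 398 lower in the double knockout (39.4%, against 6.41%) and 97 of 212 higher (45.8%, against 6.43%). Of all 59 tested interferon-stimulated genes, whatever their difference in b1, 47 were lower in the resting double knockout (79.7%, against 1.87% of all genes). Their median was -2.06.

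Irf7 averaged 4.04 ± 0.388 CPM in resting double knockout and 82.1 ± 1.85 CPM in resting control cells of b2 (SD, n = 3 each; -4.34, adjusted p = 1.18e-10). Ifi44l averaged 0.384 ± 0.239 CPM and 56.2 ± 4.41 CPM (-7.15, adjusted p = 5.64e-07), so both genes were already low in the line without DMXAA. Pdcd1 was 6.55 ± 1.01 CPM in the resting double knockout and 1.38 ± 0.721 CPM in resting control cells (2.25, adjusted p = 4.04e-05), and with DMXAA it was 54.8 ± 10.0 CPM (n = 3) and 8.02 ± 1.56 CPM (n = 4). Gpnmb and Rnd3 were likewise higher in the resting double knockout, at 1.81 (adjusted p = 0.000508) and 3.70 (adjusted p = 3.68e-07). Plod2, Adgrl2 and Crlf2 had no count in the 3 resting double knockout libraries, and Maoa averaged 27.8 ± 0.929 CPM there. Ifit1 differed with DMXAA in b2 by -1.23, which was not called (adjusted p = 0.0552), at 103 ± 10.6 CPM in the double knockout (n = 3) and 243 ± 46.2 CPM in control cells (n = 4). Mcm6 was at -0.47 with DMXAA in b2 (adjusted p = 2.1e-05), lower in the double knockout there, whereas in b1 it differed from control cells by 0.07, which was not called (adjusted p = 0.269).

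**Figure D5:**
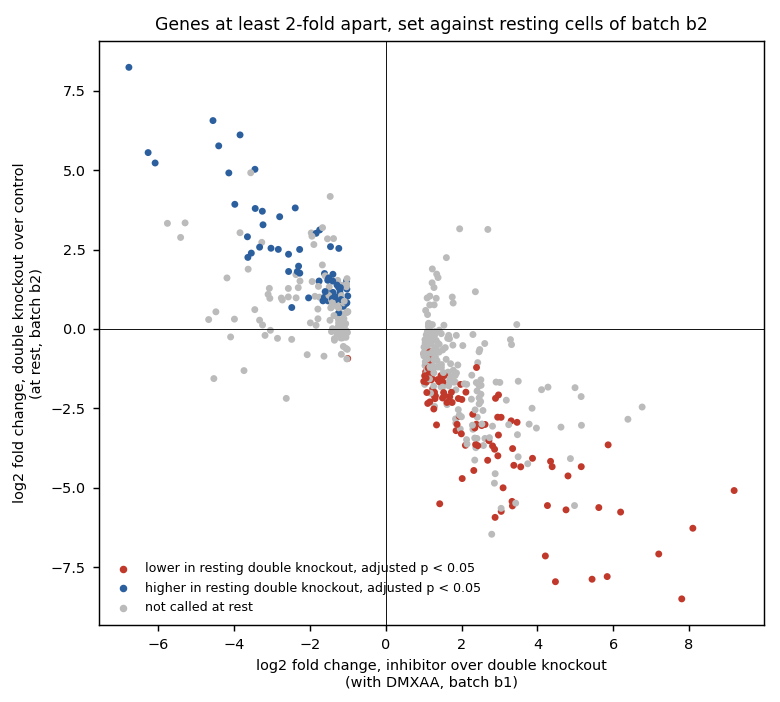
Log2 fold change of double knockout over control cells at rest in batch b2 (vertical axis) against inhibitor over double knockout with DMXAA in batch b1 (horizontal axis), for 484 of the 610 genes at least 2-fold apart in b1 and tested in b2; 126 genes with a group at 0 are not drawn. Red and blue points are lower and higher in the resting double knockout at adjusted p under 0.05, and lie mostly in the lower right and upper left.

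The inhibitor's own effect was set against the knockout's without shared controls by using b1 for the inhibitor and b2 for the knockout, both with DMXAA. Of 15919 genes tested in both, 450 were lower in each, 26.4% of the 1703 lower with the inhibitor and 42.2% of the 1066 lower in the double knockout, beside 10.7% of all genes lower with the inhibitor and 6.7% lower in the double knockout. Higher in each were 342 genes, 19% of the inhibitor's 1800 and 32% of the double knockout's 1068, beside 11.3% of all genes higher with the inhibitor and 6.71% higher in the double knockout. A further 90 genes were lower with the inhibitor and higher in the double knockout, and 25 were higher with the inhibitor and lower in the double knockout.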

How the data were processed

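The submitters' processing notes name STAR 2.7.9a, StringTie 2.2.0 and GRCm39, and the table names give GENCODE M27. The values the authors deposited are estimated counts per gene (55416 genes), rounded here to whole numbers, and TPM, used for 1 alternative on log2(TPM + 1). Strand use and treatment of reads shared by paralogs are not given in the sources used here.

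Batch b1 (26 libraries, 6 groups) and batch b2 (20 libraries) were fitted separately in edgeR 4.0.16 under R 4.3.3: filterByExpr (16947 and 16622 genes kept), TMM scaling, 1 coefficient per group, the robust quasi-likelihood F test, two-sided, and Benjamini-Hochberg adjustment over all genes tested at 0.05. On simulated counts for the direct comparison (16520 genes), 69% of 100 genes with a log2 difference of 0.5 and 92% of 100 with one of 1 were recovered, with 11 false calls among the rest. The remaining 4 libraries (b3) were not used. Levels are CPM, mean ± SD. Among small protein-coding counts 17.5% were 4, so 4 counts were taken as 1 read pair, which the labels do not state. A gene at 0 was given a floor of 3 pairs (12 counts) per library, for counting error only. This floor was 0.155 to 0.176 CPM by group of b1, leaving out SGK3 knockout at rest. Replicates of a group correlated at Spearman's rho of 0.983 to 0.989 across genes, and none were identical. Alternatives were RLE scaling, DESeq2 1.42.0, limma 3.58.1, no filter, counts divided by 4, the 2 groups alone, both batches in 1 fit, each replicate left out, and a replicate block.

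Named genes were the SGK genes; the 10 largest differences in each direction among called protein-coding genes of at least 5 CPM whose groups do not overlap; the 6 largest in each direction among DMXAA-induced genes; the 2 largest in each direction from each list; and the 5 in each direction with the largest resting difference in b2. Genes outside these rules are marked in the text; the members and lists were chosen with earlier results of these data known.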

Additional observations from a re-analysis of the deposited data

Results flagged for a closer look

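Libraries far from the other 4 of their group were looked for among 97 sets of 5 libraries, and 9 were found. Each set was 1 named gene in 1 group of b1 with DMXAA that was not at 0 throughout. Only part of the named genes were searched, some of them given above only as ranges or means, such as Ccl5 and Ifih1. Chance flags about 1 in 20. Of the 9, 7 were double knockout replicate 5, which lay below the other 4 double knockout libraries for Ifnb1 (1.4 CPM), Ifit1 (159 CPM), Ccl5 (13.2 CPM), Cxcl10 (189 CPM), Pdcd1 (66.9 CPM) and Acod1 (36.7 CPM), and above them for Ier3 (54.5 CPM). Genes measured in 1 library are not independent of each other. The direct comparison gave 3976 calls with that library and 3976 without it, counts that do not say whether the genes were the same. In the inhibitor group, replicate 2 was high for Ifit1 (240 CPM) and replicate 1 was low for Ifih1 (123 CPM).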

How the results depend on the processing

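The direct comparison of inhibitor and double knockout gave 3319 to 4273 calls under RLE scaling, DESeq2, limma on TPM, no filter, counts divided by 4, the 2 groups alone and the replicate block, and 3390 to 4017 with 1 replicate left out. Fitting both batches together gave 2036 calls for it, 1558 for inhibitor against control, 2446 for double knockout against control in b1, 3870 for the DMXAA response, 3961 for double knockout against control with DMXAA in b2 and 1147 at rest; the cause was not tested. At rest in b2 DESeq2 gave 759 calls, and leaving out 1 replicate gave 322 to 366, beside 503 (without double knockout replicate 2 there were 331, and without control replicate 1 there were 322). With 1 replicate left out the other counts were 2955 to 3663 for inhibitor against control, 4002 to 4404 for double knockout against control in b1, 5048 to 5973 for the DMXAA response and 1454 to 2145 for double knockout against control with DMXAA in b2. On TPM the inhibitor against control gave 1174 higher and 1748 lower, beside 1802 and 1718, and the DMXAA response gave 2268 higher and 3722 lower, beside 3032 and 2957. Of 117 named genes called between inhibitor and double knockout, 18 lost the call under some alternative, 14 of them in the fit of both batches. There the list counts also fell, to 6 higher for immediate early genes, 2 higher and 5 lower for SGK and PI3K genes, 2 lower for FOXO targets, 2 higher and 1 lower for glycolysis, 5 lower for cell death genes, 4 higher and 3 lower for p53 targets, 2 higher for lysosome genes and 0 higher for ribosomal genes. On TPM the counts higher were 3 for STING pathway genes, 4 for SGK and PI3K genes, 2 for glycolysis and 4 for p53 targets. Among lists with at least 4 genes called, leaving out 1 replicate moved counts by over 1.5 times for glycolysis (3 higher without double knockout replicate 1 or 3 or inhibitor replicate 2 or 4, and 4 without double knockout replicate 5), lysosome (3 higher without double knockout replicate 4 or 5 or inhibitor replicate 2 or 4), sterol (7 lower without inhibitor replicate 1), FOXO (3 higher without double knockout replicate 1), p53 (4 higher without double knockout replicate 3) and cell death genes (6 lower without inhibitor replicate 5). Of 8 genes with no call that were followed, 3 gained one: Egr1 (0.33, adjusted p = 0.0539) in 7 fits at 0.33 to 0.41, Ifit3 (0.44, adjusted p = 0.13) in 2 fits at 0.43 to 0.45 and Ifit2 (0.27, adjusted p = 0.0904) in 1 fit at 0.33. Uncalled differences that changed sign were Ifih1 (-0.01 without double knockout replicate 5), Ccl4 (-0.01 without double knockout replicate 1, -0.08 without replicate 5, and -0.01 without inhibitor replicate 2) and Tnf (0 without double knockout replicate 3 or 4, and 0.01 without inhibitor replicate 4); with 1 replicate left out they spanned -0.01 to 0.15, -0.08 to 0.05 and -0.13 to 0.01. Samples with the same replicate number did not deviate together (r of -0.096 to 0.086 over 30 pairs), so the numbers were not taken as pairs. These pairs came from the groups of b1 with DMXAA, SGK3 knockout included. With the replicate block the direct comparison gave 3858 calls, inhibitor against control 3402, double knockout against control in b1 4346 and the DMXAA response 4778.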
